A study of Homo sapiens with 12 samples.

Results

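The gamma protocadherin cluster was represented by 6 genes, PCDHGA10, PCDHGB1, PCDHGB4, PCDHGB6, PCDHGB7 and PCDHGC4. They were taken as every transcript of the deposited count table whose gene name, paired with the transcript in the deposited translational efficiency table, starts with PCDHG, which gave 6 of the 19972 transcripts in the count table. RefSeq lists 22 protein-coding gamma genes in order along the cluster, of which PCDHGB1 is number 4, PCDHGB4 number 11, PCDHGB6 number 15, PCDHGA10 number 16, PCDHGB7 number 17 and PCDHGC4 number 21. The other 16 genes were not analysed here. Levels were measured in human induced neurons, that is, neurons obtained from H1 embryonic stem cells (an established human line) through overexpression of Ngn2, a proneural transcription factor. Nterm/Nterm neurons were homozygous for an allele of LLPH that the labels call Nterm, and wt/wt neurons were wild type at LLPH. Neurons of both genotypes grew to day in vitro 14 without added glia, with doxycycline at 2 µg/mL and the antimitotic cytosine arabinoside at 4 µM, and were harvested in cycloheximide at 100 µg/mL. For each genotype there were 3 Ribo-seq libraries, which count footprints (the mRNA pieces protected by ribosomes), and 3 RNA-seq libraries, both from cytoplasmic lysate. The sources used here state neither what the Nterm allele changes in LLPH nor whether each genotype was 1 clone or several.

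Each gamma protocadherin has its own variable first exon and promoter, and the transcript that starts there is spliced to constant exons that all gamma genes share. The variable exon encodes the extracellular cadherin repeats, the membrane span and part of the tail, and the constant exons encode the shared end of the tail. A neuron expresses a subset of the variable exons, and the proteins bind in trans to matching combinations on other membranes, which serves self-recognition of dendrites and neuronal survival. The choice of promoter is known to depend on CTCF, cohesin and a conserved element near most of the starts, while the C-type genes, such as PCDHGC4, are under separate control. In mice, PCDHGC4 is the isoform needed for the survival of many interneurons.

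The promoters of the 6 genes are shown because each member is read from its own start site. The stretches below are 60 bases of the RefSeq promoter table (GRCh38.p14, plus strand of chromosome 5), and all 6 members matched that table. Capitals mark GCCGCTGT, a run of 8 bases that was picked after the 6 promoters were looked at, or the place of that run in PCDHGB7.
PCDHGB1: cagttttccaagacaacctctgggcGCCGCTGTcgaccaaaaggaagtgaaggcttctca
PCDHGB4: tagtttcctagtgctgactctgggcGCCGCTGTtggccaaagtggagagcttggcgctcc
PCDHGB6: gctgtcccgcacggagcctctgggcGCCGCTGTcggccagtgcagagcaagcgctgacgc
PCDHGA10: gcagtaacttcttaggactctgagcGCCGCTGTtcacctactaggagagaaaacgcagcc
PCDHGB7: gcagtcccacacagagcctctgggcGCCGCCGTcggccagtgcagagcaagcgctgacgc
PCDHGC4: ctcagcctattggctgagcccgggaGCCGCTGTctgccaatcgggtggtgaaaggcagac

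These stretches lie at chr5:141350014-141350073 for PCDHGB1, chr5:141387606-141387665 for PCDHGB4, chr5:141407913-141407972 for PCDHGB6, chr5:141412920-141412979 for PCDHGA10, chr5:141417572-141417631 for PCDHGB7 and chr5:141484941-141485000 for PCDHGC4. The capitals start 60, 67, 83, 42, 80 and 64 bases upstream of the annotated start in that same order of genes. PCDHGB7 carries the substitution T6C in the run, counted from 1 at its 5′ end. The stretches of PCDHGB7 and PCDHGB6 matched at 56 of 60 positions. Against PCDHGB4, 38 positions matched in PCDHGB1, 33 in PCDHGB6, 33 in PCDHGA10, 31 in PCDHGB7 and 28 in PCDHGC4. Searched on both strands, GCCGCTGT was found in 574 of all 35116 promoter windows of 300 bases (1.63%), in 13 of 25 gamma windows, in 0 of 13 alpha and in 0 of 14 beta protocadherin windows. The gamma windows include those of the members from which the run was picked, so this contrast was partly set by that choice. CGCTGT, which is contained in the longer run, was found in 11.2% of all windows, 84% of gamma windows, 53.8% of alpha windows and 7.14% of beta windows. A match of letters describes these windows and shows no binding. It also does not show that the marked run, in PCDHGC4 or elsewhere, is the conserved element named above.

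The footprint libraries held 12652833 to 16356419 counts and the RNA libraries 18944427 to 25089790. For the 6 Ribo-seq samples the genotype tag in the labels names the opposite genotype to the titles and descriptions. Groups followed the titles, which the column names of the counts also follow. With groups from the titles, the alpha protocadherin PCDHA10, chosen after its values were seen, had 0.500 CPM of footprints in Nterm/Nterm and 55.3 in wt/wt, and 0.762 CPM of RNA, where tag and title name the same genotype, in Nterm/Nterm and 51.7 in wt/wt. LLPH itself had 2.4 ± 0.707 CPM (the usual scaling of counts to a common library size, here with TMM factors) of footprints in Nterm/Nterm and 7.24 ± 0.619 in wt/wt, and 30.6 ± 1.14 CPM of RNA in Nterm/Nterm and 27.8 ± 0.807 in wt/wt (SD, n = 3 each). MAP2, TUBB3, NEFL, NEFM, STMN2 and DCX, which define neurons, were detected in every group, with TUBB3 RNA averaging 1823 CPM in Nterm/Nterm and 1649.9 in wt/wt. TUBB3 footprints averaged only 38.4 CPM in Nterm/Nterm and 32.5 in wt/wt. The summed RNA of 16 neuronal markers was 18611 to 20145 CPM in Nterm/Nterm and 16236 to 17390 in wt/wt, and 9 of the 16 passed the test, each as higher. Over all transcripts tested in RNA, 7.25% passed as higher and 10.6% as lower. The summed RNA of 10 mesenchymal markers was 3153 to 4102 CPM in Nterm/Nterm and 4683 to 5728 in wt/wt, and 8 of the 10 passed as lower and 1 as higher. In footprints the neuronal sum was 10444 to 10755 CPM in Nterm/Nterm and 7765 to 9893 in wt/wt, and the mesenchymal sum 4460.3 to 5926 CPM in Nterm/Nterm and 5933 to 7146 in wt/wt. There, 4 of the 16 neuronal markers passed as higher and 6 of the 10 mesenchymal markers as lower. Over all transcripts tested in footprints, 4.36% passed as higher and 8.91% as lower. Of 10 neural progenitor markers, 7 passed as lower and 1 as higher in Nterm/Nterm RNA, and their RNA sum was 1011 to 1163 CPM in Nterm/Nterm and 1277 to 1373 in wt/wt. In footprints, 6 of these 10 passed as lower and 1 as higher. Their footprint sums overlapped, at 1549 to 1788 CPM in Nterm/Nterm and 1595 to 1915 in wt/wt. In Nterm/Nterm RNA, 2 of 6 pluripotency, 2 of 4 astroglial and 4 of 7 proliferation markers passed as lower. In footprints, 2 of the 6 pluripotency, 1 of the 4 astroglial and 4 of the 7 proliferation markers passed as lower. The 1 oligodendrocyte lineage marker tested, CSPG4, passed as higher in Nterm/Nterm RNA and as lower in footprints. Its footprints averaged 3.71 CPM in Nterm/Nterm and 5.84 in wt/wt. COL1A1 RNA averaged 62.5 CPM in Nterm/Nterm and 155 in wt/wt, and SOX2 RNA 15.3 CPM in Nterm/Nterm and 19.5 in wt/wt, while COL3A1, PAX6, POU5F1, NANOG, GFAP, AQP4, OLIG2 and SOX10 had no named transcript and were not analysed here. The part of these cell-type markers in the results that follow was not tested. In these bulk samples, fewer cells of a type and less RNA per cell cannot be told apart. Reads from shared constant exons or from close paralogs could be split between members, or come from gamma genes not analysed here. The sources used here do not give the rule by which such reads were counted, which makes the values of single members uncertain.

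PCDHGB4 had the largest log2 change between the genotypes of the 6 members in each assay, and it was higher in Nterm/Nterm in RNA and in footprints. Its RNA was 39.9, 41.1 and 42.9 CPM in the Nterm/Nterm libraries, against 23.9, 19.4 and 25.5 CPM in the wt/wt libraries. Its footprints were 54.6, 50.6 and 55.3 CPM in Nterm/Nterm, against 32.0, 26.4 and 29.1 CPM in wt/wt. Every Nterm/Nterm library was above every wt/wt library in both assays. How many of all transcripts separate in this way was not computed, so lack of overlap, here and below, only describes these libraries. The PCDHGB4 values rested on 783 to 920 RNA counts and 651 to 840 footprint counts per Nterm/Nterm library. Per wt/wt library there were 424 to 638 RNA counts and 403 to 449 footprint counts. The log2 change, Nterm/Nterm minus wt/wt, was 0.85 ± 0.09 (SE) in RNA, with an adjusted p of 0.000226 in edgeR's quasi-likelihood test over all transcripts, and 0.88 ± 0.08 in footprints, with an adjusted p of 1.02e-06. The RNA change lay at percentile 99.4 of all transcripts tested and the footprint change at percentile 99.8. The call held in both assays when any 1 library was left out, with adjusted p of 8.25e-05 to 0.00265 in RNA and 1.03e-07 to 2.43e-05 in footprints.

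PCDHGA10 and PCDHGB7, neighbours in the cluster, were lower in Nterm/Nterm. PCDHGA10 footprints were 16.4, 16.8 and 15.0 CPM in Nterm/Nterm, against 24.2, 21.9 and 21.0 CPM in wt/wt, and its RNA was 12.02, 12.9 and 12.3 CPM in Nterm/Nterm, against 14.8, 16.7 and 14.1 CPM in wt/wt. PCDHGB7 footprints were 14.8, 16.4 and 13.8 CPM in Nterm/Nterm, against 22.3, 20.5 and 19.9 CPM in wt/wt, and its RNA was 14.9, 15.5 and 12.9 CPM in Nterm/Nterm, against 18.4, 17.6 and 16.5 CPM in wt/wt. The genotypes did not overlap in either gene or assay. Footprints fell by 0.48 on the log2 scale in both genes, with an SE of 0.10 each and adjusted p of 0.00351 for PCDHGA10 and 0.00431 for PCDHGB7 (edgeR). PCDHGA10 RNA had a log2 change of -0.29 ± 0.09 and passed as lower (adjusted p = 0.0441). PCDHGB7 RNA changed by a log2 of -0.28 ± 0.09 and did not pass the test (adjusted p = 0.0517). With the replicate number as a block, which paired the RNA libraries, both RNA changes passed, at adjusted p of 0.0122 for PCDHGA10 and 0.0104 for PCDHGB7. The PCDHGA10 RNA call was lost without Nterm/Nterm replicate 1 (adjusted p = 0.111), 2 (0.0506) or 3 (0.0902), and without wt/wt replicate 1 (0.110) or 2 (0.190). Under DESeq2 the adjusted p was 0.0811 and under limma-voom 0.0550. The PCDHGB7 RNA change passed without Nterm/Nterm replicate 2 (0.0359) or wt/wt replicate 3 (0.0477), and with no filter on low counts (0.0465).

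PCDHGB6 held most of the summed counts of the 6 members and did not pass the test of genotype in either assay. Its RNA was 374, 376 and 407 CPM in Nterm/Nterm, against 365, 355 and 382 CPM in wt/wt, and its footprints were 365, 375 and 388 CPM in Nterm/Nterm, against 349.9, 297 and 377 CPM in wt/wt. The genotypes overlapped in both assays, and the log2 change was 0.07 ± 0.05 in RNA (adjusted p = 0.327) and 0.14 ± 0.08 in footprints (adjusted p = 0.281). PCDHGB6 and PCDHGB7, whose promoter stretches above differ at few positions, gave log2 changes of 0.14 and -0.48 in footprints. The difference between those 2 genes was not tested.

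PCDHGC4 RNA was 56.3, 51.4 and 57.5 CPM in Nterm/Nterm, against 49.5, 48.1 and 50.5 CPM in wt/wt, with no overlap, and its footprints were 114, 125 and 126 CPM in Nterm/Nterm, against 108, 104 and 120.5 CPM in wt/wt, with overlap. The log2 change was 0.16 ± 0.06 in RNA (adjusted p = 0.0711, edgeR) and 0.14 ± 0.07 in footprints (adjusted p = 0.206). PCDHGB1 RNA was 14.5, 11.3 and 14.5 CPM in Nterm/Nterm, against 11.4, 8.23 and 12.3 CPM in wt/wt, and replicate 2 was the lowest in both genotypes. Its footprints were 23.9, 21.7 and 23.4 CPM in Nterm/Nterm, against 19.0, 18.7 and 19.8 CPM in wt/wt, with no overlap. The log2 change of PCDHGB1 was 0.33 ± 0.14 in RNA (adjusted p = 0.136) and 0.26 ± 0.09 in footprints (adjusted p = 0.0659). Neither gene passed the test in either assay as fitted without a block. With the replicate block, the adjusted p in RNA was 0.00767 for PCDHGB1 and 0.0132 for PCDHGC4, and both were called higher. The PCDHGC4 RNA change also passed without Nterm/Nterm replicate 2 (adjusted p = 0.0266).

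**Figure D1:**
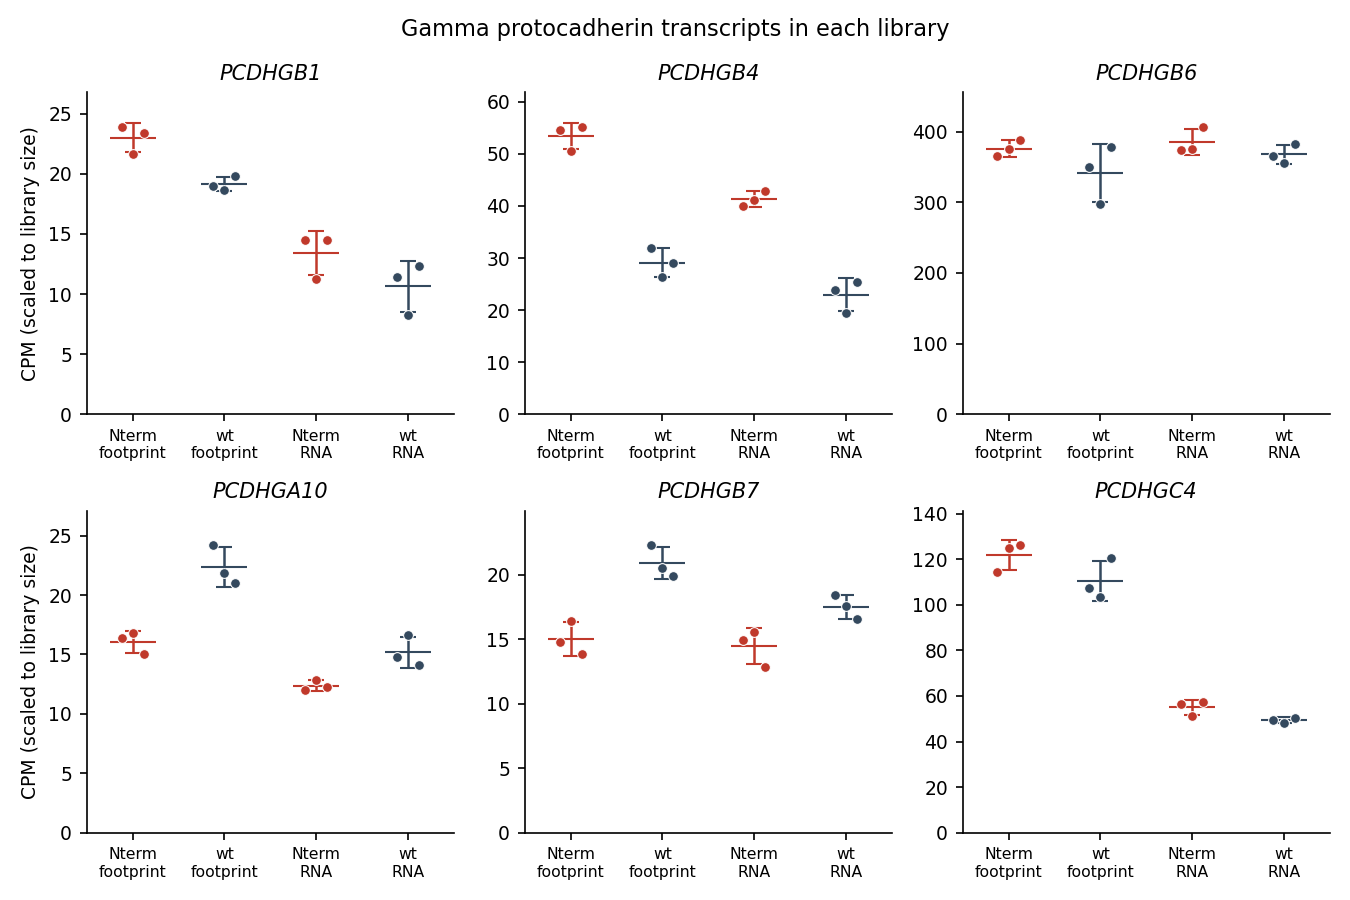
CPM of each of the 6 gamma protocadherins in every library, with Nterm/Nterm left of wt/wt in each assay, points for libraries and bars for the mean and SD (n = 3). PCDHGB4 libraries of Nterm/Nterm lie at 39.9 to 42.9 CPM of RNA and 50.6 to 55.3 CPM of footprints, all above those of wt/wt, while PCDHGA10 and PCDHGB7 lie lower in Nterm/Nterm and PCDHGB6 overlaps.

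Over the cluster, RNA was called higher for 1 of 6 members (PCDHGB4) and lower for 1 (PCDHGA10), where 17.9% of the 14659 transcripts tested were called in either direction, 7.25% as higher and 10.6% as lower. Footprints were called higher for 1 member (PCDHGB4) and lower for 2 (PCDHGA10 and PCDHGB7), where 13.3% of 13566 transcripts were called, 4.36% as higher and 8.91% as lower. With 6 members these shares describe the cluster and show nothing particular to it. With the replicate block, 3 members were higher and 2 lower in RNA, among 4504 transcripts called, against 2624 without it. The number of RNA calls also fell to 841 without wt/wt replicate 1, 964 without wt/wt replicate 2 and 1729 without Nterm/Nterm replicate 3. The number of footprint calls, 1800 in all, fell to 954 without wt/wt replicate 1, 978 without wt/wt replicate 2 and 965 without Nterm/Nterm replicate 3. The median log2 change of the 6 members was 0.11 in RNA and 0.14 in footprints. The same median over all transcripts tested was -0.0004 in RNA and 0.008 in footprints.

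**Figure D2:**
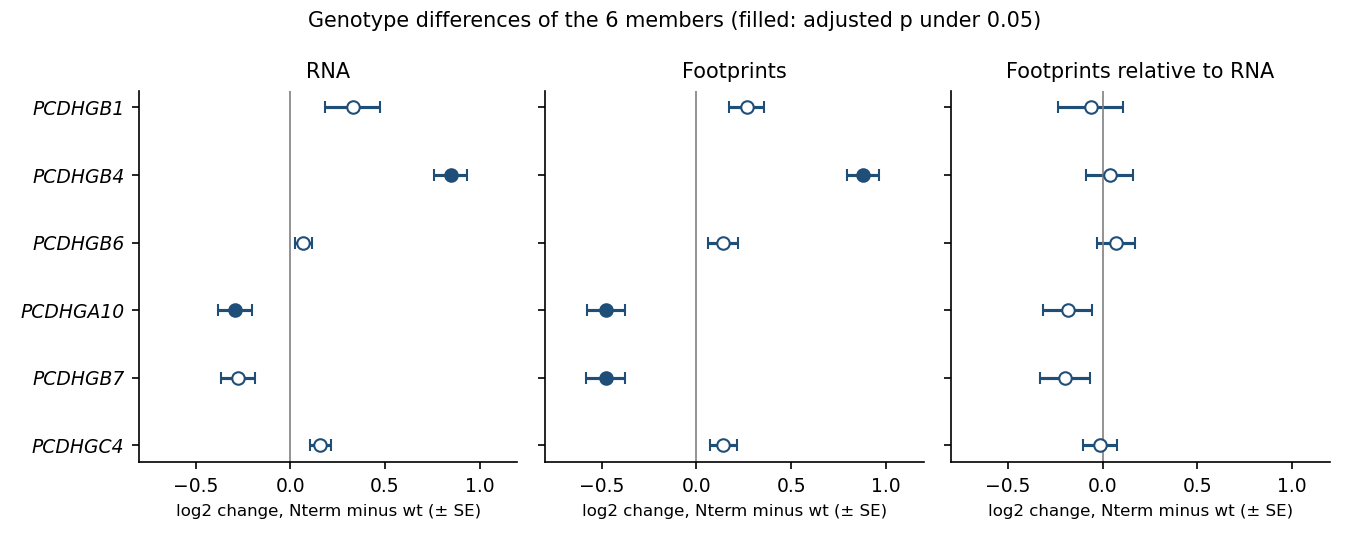
Log2 change, Nterm/Nterm minus wt/wt, of each gamma protocadherin in RNA, footprints and translational efficiency (footprints relative to RNA), with points for the edgeR estimate, filled where the adjusted p was under 0.05, and bars for its SE. PCDHGB4 lies at 0.85 in RNA and 0.88 in footprints, PCDHGA10 and PCDHGB7 lie below 0 in both, and no point for translational efficiency is filled. The fits shown used no replicate block.

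Summed over the 6 members, the cluster was higher in Nterm/Nterm by a ratio of 1.08 in RNA and 1.11 in footprints. The sum was 522 ± 21.6 CPM of RNA in Nterm/Nterm and 483 ± 18.2 in wt/wt, and 605 ± 16.3 CPM of footprints in Nterm/Nterm and 544 ± 50.7 in wt/wt (SD, n = 3 each). The libraries of the genotypes did not overlap in RNA. In footprints they were barely apart, with the lowest Nterm/Nterm sum at 589 CPM and the highest wt/wt sum at 587.8 CPM. Scaled by library size alone, without TMM factors, those same libraries gave 581.4 and 582.9 CPM, so the genotypes overlapped. The sum was given no test. The neuronal marker sum was higher and the mesenchymal marker sum lower in the same Nterm/Nterm RNA libraries, as given above. Without PCDHGB6, the RNA ratio was 1.18.

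Shares of the cluster's counts, here the summed counts of the 6 members, give its make-up free of library scaling. They leave out the other 16 gamma genes, so they are not shares of all gamma protocadherin counts. They are shares of counts, not of molecules, since no transcript length was at hand. PCDHGB4 held 8.84% ± 0.459 of the cluster's footprints in Nterm/Nterm and 5.37% ± 0.409 in wt/wt, and 7.92% ± 0.160 of its RNA in Nterm/Nterm and 4.73% ± 0.491 in wt/wt. PCDHGA10 held 2.66% of footprints in Nterm/Nterm and 4.14% in wt/wt, and 2.37% of RNA in Nterm/Nterm and 3.15% in wt/wt. PCDHGB7 held 2.48% of footprints in Nterm/Nterm and 3.87% in wt/wt, and 2.78% of RNA in Nterm/Nterm and 3.63% in wt/wt. None of these shares overlapped between the genotypes, and each gave an exact two-sided permutation p of 0.1, the smallest that 3 against 3 libraries allow, so none of the 24 share tests could pass 0.05.

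PCDHGB6 held 73.8% ± 0.654 of the RNA in Nterm/Nterm and 76.1% ± 0.425 in wt/wt, with no overlap (exact permutation p = 0.1), and 62.1% of the footprints in Nterm/Nterm and 62.7% in wt/wt, with overlap (exact permutation p = 0.6). PCDHGC4 held 20.1% of footprints in Nterm/Nterm and 20.4% in wt/wt, and 10.5% of RNA in Nterm/Nterm and 10.2% in wt/wt. PCDHGB1 held 3.80% of footprints in Nterm/Nterm and 3.54% in wt/wt, and 2.57% of RNA in Nterm/Nterm and 2.20% in wt/wt. Shares sum to a whole, so a gain of 1 member lowers the others. By share of RNA, the order was PCDHGB6, PCDHGC4, PCDHGB4, then PCDHGB7, PCDHGB1 and PCDHGA10 in Nterm/Nterm, and PCDHGB6, PCDHGC4, PCDHGB4, PCDHGB7, PCDHGA10 and PCDHGB1 in wt/wt. The shares of PCDHGB7, PCDHGB1 and PCDHGA10 overlapped each other over the Nterm/Nterm RNA libraries, and those of PCDHGB7 and PCDHGA10 over the wt/wt RNA libraries.

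**Figure D3:**
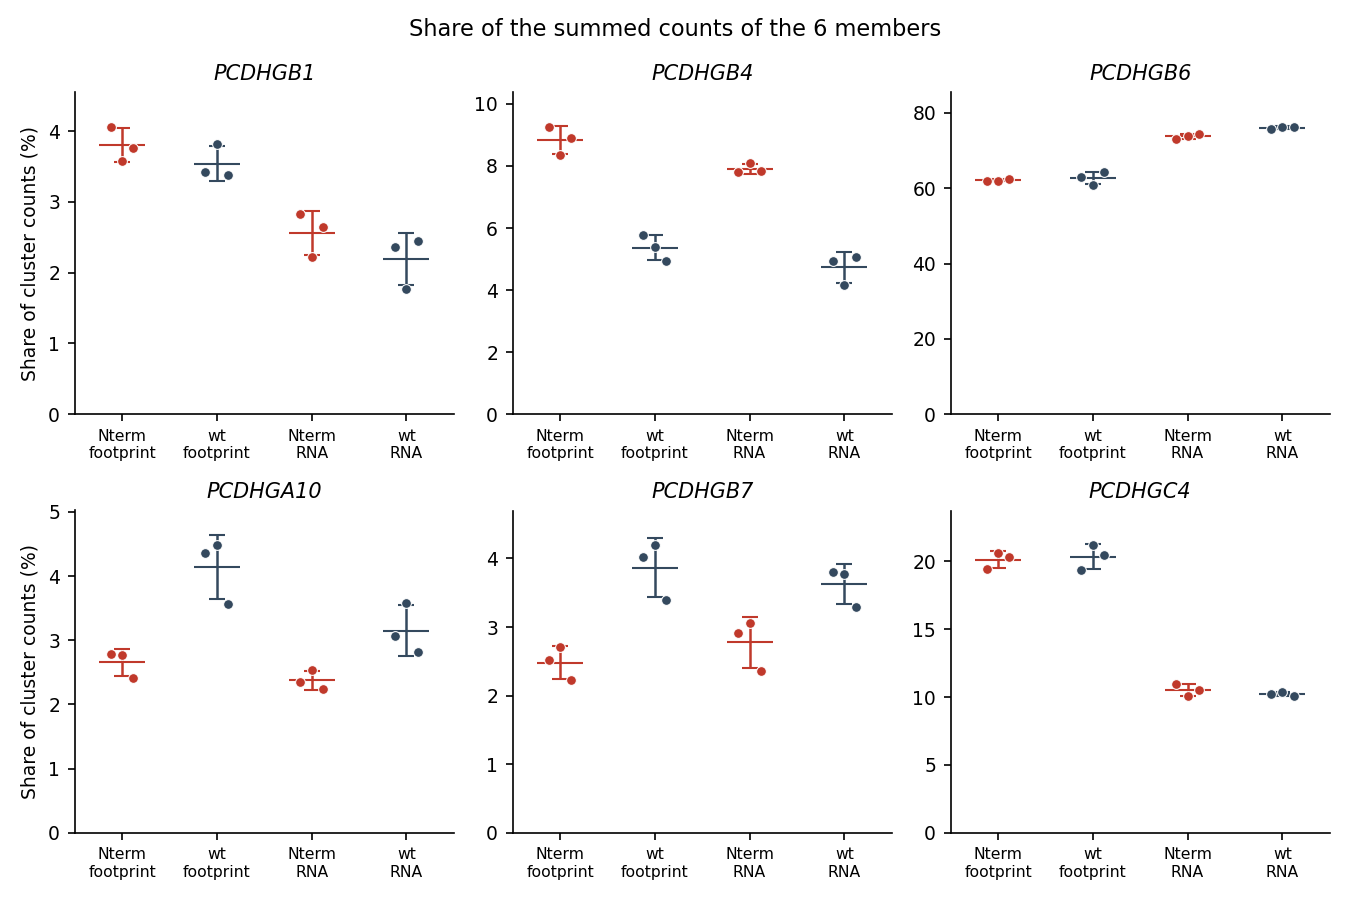
Share of the summed counts of the 6 gamma protocadherins, in percent, held by each member in each library, with Nterm/Nterm left of wt/wt in each assay, and bars for the mean and SD (n = 3). PCDHGB6 takes the most in every library, PCDHGC4 takes a larger share of footprints (20.1% and 20.4%) than of RNA (10.5% and 10.2%), and PCDHGB4 takes more in Nterm/Nterm than in wt/wt.

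PCDHGC4 had the most footprints relative to its RNA of the 6 members, in both genotypes. Its share of footprints was 20.1%, against 10.5% of RNA, in Nterm/Nterm and 20.4%, against 10.2%, in wt/wt, and the assays did not overlap (exact permutation p = 0.1 each). Its log2 difference of footprints minus RNA, with each assay scaled to its own libraries, was 1.15 ± 0.07 in Nterm/Nterm (edgeR adjusted p = 2.57e-12) and 1.16 ± 0.07 in wt/wt (2.01e-12). These lay at percentiles 90.0 and 90.5 of all transcripts, whose median was 0.146 in Nterm/Nterm and 0.147 in wt/wt. PCDHGB1 differed by 0.78 in Nterm/Nterm and 0.84 in wt/wt, PCDHGA10 by 0.37 and 0.56, and PCDHGB4 by 0.37 and 0.34, and these passed in both genotypes. Among all transcripts, PCDHGB1 lay at percentiles 77.5 in Nterm/Nterm and 80.2 in wt/wt. In the same order, PCDHGA10 lay at 59.6 and 68.3 and PCDHGB4 at 59.6 and 58.4. PCDHGB6 differed by -0.04 in Nterm/Nterm and -0.11 in wt/wt and passed in neither, although it passed in wt/wt without wt/wt footprint replicate 3, at -0.18 (adjusted p = 0.0228). Its share was 62.1% of footprints, against 73.8% of RNA, in Nterm/Nterm and 62.7%, against 76.1%, in wt/wt (exact permutation p = 0.1 each). PCDHGB7 differed by 0.05 in Nterm/Nterm (adjusted p = 0.623) and by 0.25 in wt/wt (adjusted p = 0.0151), a call that was lost without wt/wt RNA replicate 3 (0.0642) or wt/wt footprint replicate 1 (0.0538). The PCDHGB7 difference in wt/wt lay at percentile 54.7. In all, 4 members were called higher in footprints in Nterm/Nterm and 5 in wt/wt, where 45.4% of transcripts in Nterm/Nterm and 45.8% in wt/wt were called higher, and 80% and 81.1% were called in either direction in those same genotypes. The assays differ in library preparation and in the part of the transcript they cover, so these values order transcripts and set no absolute efficiency.

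**Figure D4:**
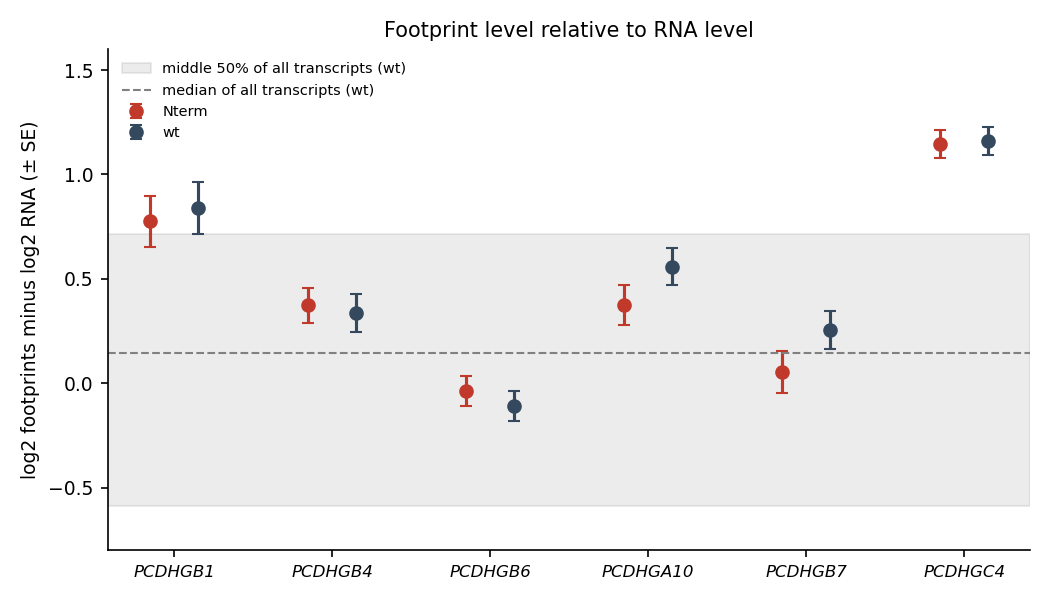
Log2 difference of footprints minus RNA for each gamma protocadherin in Nterm/Nterm and in wt/wt, with bars for the SE from edgeR, a dashed line for the median of all transcripts in wt/wt (0.147) and a grey band for their middle 50%. PCDHGC4 stands highest, at 1.15 in Nterm/Nterm and 1.16 in wt/wt, and PCDHGB6 lies lowest, at -0.04 in Nterm/Nterm and -0.11 in wt/wt.

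The change in translational efficiency, the genotype difference in footprints relative to RNA, was called for 0 of 6 members, where 0.0203% of 14786 transcripts were called by edgeR. The count was also 0 of 6 at an unadjusted p under 0.05, and 0 of 6 with limma-voom. DESeq2 gave an adjusted p for PCDHGB6 only, 0.861, and none for the other 5 members. The log2 change in translational efficiency was 0.04 ± 0.12 for PCDHGB4, with a 95% interval of -0.21 to 0.28. It was -0.18 ± 0.13 for PCDHGA10, -0.20 ± 0.13 for PCDHGB7, -0.06 ± 0.17 for PCDHGB1, 0.07 ± 0.10 for PCDHGB6 and -0.01 ± 0.09 for PCDHGC4, with an adjusted p of 1.00 for each. The intervals leave room for changes of this size, so the members are not shown to be alike in efficiency between genotypes. In the authors' deposited table the efficiency of PCDHGB4 was 1.24 in Nterm/Nterm and 1.24 in wt/wt, and that of PCDHGC4 was 2.12 in Nterm/Nterm and 2.16 in wt/wt. The authors' deposited table gave PCDHGB7 an efficiency of 0.995 in Nterm/Nterm and 1.15 in wt/wt, with an unadjusted p of 0.0140, the lowest among the 6 members. The median efficiency in the authors' deposited table was 1.10 in Nterm/Nterm and 1.11 in wt/wt.

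Transcripts nearest to each member were ranked by the root mean square difference of log2(CPM + 1), centred within each assay, over the 12 libraries and 9594 named transcripts with a mean of at least 10 CPM in both assays. For PCDHGB4 these were SOX1, a neuroectoderm transcription factor, at 0.126, PCDHA12 of the alpha cluster at 0.150, and SSTR2, a somatostatin receptor, at 0.158, where the median of all candidates was 0.432. SOX1 changed by a log2 of 0.84 in RNA and 0.67 in footprints, and PCDHA12 by 0.64 in both. For PCDHGA10 they were CAMK2D, SVEP1 and ENTPD1, and for PCDHGB7 they were PHACTR2, USP53 and HEXA, a lysosomal hexosaminidase subunit. For PCDHGB1 they were DRGX, NUAK1 and MEIS1, for PCDHGB6 they were ZFHX3, L1CAM and G3BP2, and for PCDHGC4 they were SV2A, a synaptic vesicle protein, LRFN3 and MYO18A. The summed cluster lay nearest to L1CAM, a neuronal adhesion molecule, ZNF609, DNAJC6, CREBBP and ZFHX3. Nearness describes these libraries, which all the transcripts share. Genotype changes close to that of the member, such as those of SOX1 and PCDHA12, follow in part from the ranking.

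Counts of called genes in the lists that follow stand beside 17.9% of all transcripts called in RNA, 7.25% as higher and 10.6% as lower. In footprints 13.3% were called, 4.36% as higher and 8.91% as lower. No list was tested as a set, so the counts show nothing particular to a list. Among genes that act on promoter choice, of 14 CTCF and cohesin genes tested, 3 passed in RNA, each higher in Nterm/Nterm, and edgeR called 0 in footprints, with 3 at an unadjusted p under 0.05. PDS5B, a cohesin regulator, rose by a log2 of 0.30, STAG1, a cohesin subunit, by 0.22, and CTCF, the insulator protein that binds protocadherin promoters, by 0.15, with 73.9 CPM in Nterm/Nterm and 66.6 CPM in wt/wt. Of 22 silencing and DNA methylation genes, 5 passed in RNA, each higher, and 1 was higher and 1 lower in footprints. TET3, which oxidises methylcytosine, rose by 0.32 in RNA and 0.27 in footprints, CBX5, a heterochromatin protein, rose by 0.18 in RNA, and DNMT3B, a DNA methyltransferase, fell by 0.36 in footprints.

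Of 8 genes that cleave or process protocadherins, 3 passed in RNA, each lower, and 1 of 7 was lower in footprints, where 10.6% and 8.91% of all transcripts were called lower in those same assays. The metalloprotease MMP14 fell by 0.55 in RNA and 0.29 in footprints, the gamma-secretase subunit NCSTN fell by 0.23 in RNA, and ADAM10, the sheddase that cleaves gamma protocadherins, fell by 0.14 in RNA. Of 26 binding partners and signalling genes, 3 were higher and 4 lower in RNA, and 2 were higher and 2 lower in footprints. RET, a receptor tyrosine kinase that binds protocadherins, rose by 0.29 in RNA and 0.27 in footprints, and NLGN2, a synaptic adhesion protein, rose by 0.26 in footprints. PRKCB, a protein kinase C, rose by 0.25 and WASF1, of the WAVE actin complex, by 0.23 in RNA. CYFIP1, another WAVE complex gene, fell by 0.40 in RNA and 0.41 in footprints, WASF2 fell by 0.32 in RNA, and the focal adhesion kinase relative PTK2B fell by 0.27 in RNA and 0.37 in footprints.

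The alpha and beta clusters, next to the gamma cluster on the chromosome, also held members called in both directions, beside the same 17.9% of all transcripts called in RNA and 13.3% in footprints. Of 6 alpha members, 3 were higher and 1 lower in RNA, with log2 changes of -6.07 to 0.64, and 2 were higher and 1 lower in footprints. Of 7 beta members, 2 were higher and 3 lower in RNA, with log2 changes of -2.33 to 0.36, and 5 were higher and 2 lower in footprints, with changes of -5.96 to 0.74. The gamma members ranged from -0.29 to 0.85 in RNA and from -0.48 to 0.88 in footprints. Among 7 non-clustered delta protocadherins, 4 were higher and 1 lower in RNA and 3 were higher in footprints, with PCDH19 at 0.74, PCDH17 at 0.54 and PCDH10 at 0.40 in RNA, and PCDH1 at -0.18. Among 10 classical cadherins, 4 were higher and 2 lower in RNA and 3 were higher and 1 lower in footprints, with CDH20 at 0.53 and CDH7 at -0.37 in RNA.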

How the data were processed

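Build GRCh37 and the tools Salmon 1.4.0, Bowtie2 2.3.4.3, cutadapt 2.4, UMI-tools 1.0.1, limma and edgeR are named, per the submitters' processing notes, with no role given. The deposited values are whole-number counts per transcript for 12 libraries, not normalised, and all 12 library columns were used. The authors' deposited table gives, per its header, translational efficiency as a ratio of footprints to RNA with its SD per genotype, the ratio between genotypes and an unadjusted p-value. Every transcript in that table had at least 1016 counts in total, so named genes are the better covered ones.

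The members and the gene lists were chosen with earlier results of these data known. The test was edgeR 4.0.16 (R 4.3.3) on the counts (TMM factors, filterByExpr, quasi-likelihood F test, two-sided, Benjamini-Hochberg adjustment over all transcripts, threshold 0.05), per assay, and all 6 members passed the filter in every fit. For translational efficiency, the assay by genotype interaction was tested over 12 libraries, with TMM factors within each assay. SE is the size of the log2 change divided by the square root of F. TMM scaling sets changes relative to most other transcripts. Shares were compared with exact permutation tests (SciPy 1.17.1). The procedure was tested on simulated data. The text names all members, the 3 nearest transcripts to each and the 5 nearest to their sum, and up to 3 called genes per list, direction and assay; of some lists not every such gene is printed. limma-voom (limma 3.58.1) and DESeq2 1.42.0 were alternatives.

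Replicates of a group differed beyond sampling noise, and none was counted as a duplicate. Nothing says that replicates were separate cultures, and the p-values then cover only the spread among these samples, which may be technical. Deviations from the group mean correlated between same-numbered RNA libraries of the genotypes at 0.155, 0.17 and 0.352, all over 0.1, so the numbers were taken to pair the RNA libraries. By the same rule they paired footprint with RNA libraries in Nterm/Nterm (0.159, 0.306 and 0.411) and not in wt/wt (0.0404, 0.0849 and 0.218). The labels do not say what a number marks, and the main fits used no replicate block.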

Additional observations from a re-analysis of the deposited data

How the results depend on the processing

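The PCDHGB4 calls in RNA and footprints held under DESeq2 size factors, no filter, DESeq2, limma-voom, the replicate block and each left-out library. Of the members, 2 were lower in RNA with no filter, 0 with DESeq2 and 0 with limma-voom. With the replicate block, RNA gave 4504 calls with 3 members higher and 2 lower, and footprints gave 2 members higher (PCDHGB1 at adjusted p = 0.0423). Across genotypes the footprint libraries share only a number, with same-number correlations of 0.0352, 0.13 and 0.268, and replicate 1 did not correlate best with its own number. In Nterm/Nterm, footprint and RNA libraries of the same number correlated at 0.159, 0.306 and 0.411. A block on that number within genotype, chosen after seeing the data, changed no member's call in footprints minus RNA. Translational efficiency calls over all transcripts were 27 with DESeq2, and 5 and 20 with the block by number within assay and within genotype. Leaving out each library was chosen after seeing the data for the footprint minus RNA differences only. It gave 841 to 2851 RNA calls, with 1 to 2 members higher and 0 to 2 lower, and 954 to 2045 footprint calls. It moved the RNA log2 change of PCDHGB1 between 0.18 and 0.44 and of PCDHGB6 between 0.027 and 0.097, and the footprint change of PCDHGB6 between 0.043 and 0.22 and of PCDHGC4 between 0.092 and 0.21, none of which passed in any of these fits. It moved the translational efficiency log2 change of PCDHGB1 between -0.18 and 0.085, PCDHGB4 between -0.045 and 0.14, PCDHGB6 between -0.024 and 0.15 and PCDHGC4 between -0.064 and 0.052. It moved the footprint minus RNA difference in Nterm/Nterm of PCDHGB6 between -0.061 and 0.0045 and of PCDHGB7 between -0.025 and 0.11, and gave 0 to 1 members lower in wt/wt. With genotypes from the tag, footprint changes turn sign by construction: PCDHGA10 0.48, PCDHGB1 -0.26, PCDHGB4 -0.88, PCDHGB6 -0.14, PCDHGB7 0.48 and PCDHGC4 -0.14, with 2 members higher and 1 lower. Translational efficiency then gave 4150 calls, with 2 members higher (PCDHGA10 0.77, PCDHGB7 0.76) and 3 lower (PCDHGB1 -0.59, PCDHGB4 -1.73, PCDHGC4 -0.30), and PCDHGB6 at -0.21 was not called. Footprints minus RNA then gave 2 members lower in Nterm/Nterm (PCDHGB4 -0.51, PCDHGB6 -0.18). In wt/wt it gave 3 higher (PCDHGB1 1.10, PCDHGB4 1.22, PCDHGC4 1.30) and 1 lower (PCDHGB7 -0.23), and PCDHGB6 at 0.032 was not called. Without PCDHGB6, the ratio of the RNA sums was 1.18. The RNA share differences without PCDHGB6, Nterm/Nterm minus wt/wt in percentage points, were -4.10 for PCDHGA10, 10.5 for PCDHGB4, -4.56 for PCDHGB7 and -2.45 for PCDHGC4. In footprints they were -4.08 for PCDHGA10, 0.54 for PCDHGB1, 8.91 for PCDHGB4, -3.81 for PCDHGB7 and -1.56 for PCDHGC4. The PCDHGC4 share difference in RNA was 0.32 with PCDHGB6 included, so leaving PCDHGB6 out turned its sign. Shares per transcript length were not run, since no lengths were at hand. Other causes were not tested.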
